A study of Homo sapiens with 6 samples.

Results

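The genes described here are the canonical histone genes of the clusters HIST1 to HIST4, taken as every row whose symbol begins with HIST1 to HIST4 and then H1, H2A, H2B, H3 or H4. The rule found 65 of the 31413 genes in the table, 7 of the linker family H1, 16 of H2A, 20 of H2B, 9 of H3 and 13 of H4. They were measured by RNA-seq in C42 cells (commonly written C4-2), a human prostate cancer line, with a control shRNA (shCTR, the reference) or an shRNA against NSD2 (shNSD2), with 3 libraries in each group (shCTR 1, 2 and 4; shNSD2 1, 2 and 3). All cells grew in RPMI medium with 10% serum. NSD2, also called WHSC1, dimethylates lysine 36 of histone H3, and the series title asks how it bears on immune infiltration in prostate cancer. The labels name no individual shRNA sequence or clone and do not say whether the libraries of a group are independent cultures. The p-values therefore rest on a spread between libraries that may be technical.

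Histones are the spools around which DNA is wound: H2A, H2B, H3 and H4 form the nucleosome core and H1 binds the linker DNA between cores. The cluster genes supply the bulk of histone protein during S phase, when DNA is copied, and their mRNAs are unusual in ending at a short stem-loop, bound by the protein SLBP, in place of a poly(A) tail. Some of these genes can also be read past the stem-loop to a poly(A) site, which is known mostly from differentiated or non-dividing cells. The libraries were made with a kit that selects polyadenylated RNA. The counts therefore hold the polyadenylated transcripts of these genes and whatever tail-less RNA was carried along, and do not measure their total mRNA.

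Total counts ran from 19412896 to 20665494 per library, so that a floor of 3 counts corresponded to 0.145 to 0.156 CPM (counts scaled to a common library size, with TMM factors). NSD2 itself stood at 219, 223 and 200.1 CPM in shCTR 1, 2 and 4 and at 85.3, 86.4 and 89.7 CPM in shNSD2 1, 2 and 3. NSD2 thus fell by 1.30 on the log2 scale (SE 0.0870, adjusted p = 8.03e-05 by the quasi-likelihood test of edgeR; exact two-sided permutation p = 0.1, the smallest that 3 against 3 libraries allow). Of the prostate luminal markers, KLK3 ran from 5590.1 to 7038 CPM and KRT8 from 329 to 534 CPM per library, whereas the leukocyte markers CD14 and LYZ had at most 5 and 3 counts in a library. The fibroblast and endothelial markers with a row were at or near 0 except COL6A3 (4.66 CPM on average) and VWF (6.58 CPM). In each group 1 library was often the lowest: shCTR 4 among the controls for 26 of the 40 histone genes tested, and shNSD2 1 among the knockdown libraries for 29 of the 40. Calls that changed without shCTR 4 are given with and without it.

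The stem-loop that marks these mRNAs is shown because it decides which of their transcripts a poly(A) selection can hold. It was searched in the GENCODE 29 transcripts within 100 bases after the stop codon, or anywhere in a pseudogene's transcript, as 16 bases with a 6-base stem that starts with GG and ends with CC around a loop of TTTN or TCTN, with at most 1 unpaired stem position. It was found in 29 of the 64 histone genes that the annotation holds, and in 44 of 18577 other protein-coding genes (0.237%), among them the variant histone gene H2AFX. The searches were not alike. For the histone genes every coding transcript was used, short ones included. For the other genes only the coding transcript with most bases after the stop codon was used, where it was long enough to hold the window. In the coding genes it lay 22 to 67 bases after the stop codon, and only 6 different 16-base forms occurred, the commonest in 14 genes. The sequences below run 5′ to 3′ as DNA on the transcript strand, with 5 bases on either side and the loop in capitals, for members whose values are described further on.
HIST4H4: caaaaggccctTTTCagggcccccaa
HIST1H4I: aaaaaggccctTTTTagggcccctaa
HIST3H2A: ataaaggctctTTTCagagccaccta
HIST2H2BE: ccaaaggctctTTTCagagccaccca
HIST1H2AG: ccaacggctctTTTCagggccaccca
HIST1H2BF: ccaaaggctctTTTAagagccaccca
HIST1H3E: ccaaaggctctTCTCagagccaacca

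Of the 29 genes with a stem-loop, 20 have an annotated transcript that runs at least 100 bases beyond it, by 116 to 2976 bases (median 1147.5), and in 15 of these a transcript carries AATAAA or ATTAAA in its last 50 bases. In 23 of the 35 genes without a match the annotated transcript ends by 20 bases after the stop codon, so that the place of the stem-loop is not in the model. Of the 20 genes with an annotated extension, 19 passed the low-count filter, against 4 of the 9 whose transcripts with the stem-loop end within 100 bases of it and 16 of the 35 without a match. The filter takes counts without regard to length, and genes with an extension mostly have longer models. The part of length in this contrast was not tested. HIST1H2BD, among the 9, also has a transcript that runs to 384 bases after the stop codon without the stem-loop. An absent match says only that these letters are not in the window searched.

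Most of the histone signal came from a few genes. The 6 most abundant held 69.3% of the 88573 counts of all 65 rows, and HIST1H1C alone had 25263. Per kilobase of annotated exon, HIST1H1C averaged 328 CPM over the 6 libraries, HIST1H2BK 207, HIST2H2BE 50.8 and HIST1H2AC 26.4. The models of HIST1H1C and HIST1H2BK hold little beyond the coding sequence, so their values per kilobase are not on the same footing as those of genes with a long annotated tail. Together the histone rows took 0.0621% to 0.0854% of each library.

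Too low to judge were 25 of the 65 genes, which fell below the low-count filter and were not tested. They held at most 17 counts in a library and 2 to 52 over all 6, together 0.613% of the histone counts. Those with the most counts over all 6 libraries were HIST1H2AJ with 52, HIST1H4A with 48, HIST1H4J with 45, HIST1H4D with 42 and HIST1H4B with 41. HIST1H1A (3 counts in all) and HIST1H1D (8) of the linker family and the testis gene HIST1H1T (34) were among them. Of the 40 that passed, HIST1H1B, HIST1H2AL, HIST1H2BPS2, HIST1H3A, HIST1H3J and HIST2H4A met the filter's count cutoff (0.497 CPM) in all 3 shCTR libraries but not in all shNSD2 libraries, and HIST1H4C did so in all 3 shNSD2 libraries but not in all shCTR libraries, so their passing depended in part on the group in which they were higher.

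With NSD2 lowered, 7 of the 40 tested histone genes fell and 2 rose at an adjusted p under 0.05 (edgeR quasi-likelihood test, adjusted over all genes), and 31 did not pass. Over all 17160 genes tested, 15.2% were called lower and 15.5% higher, so the share of histone genes called lower (17.5%) was near the background and the share called higher was 5%. The median log2 fold change was -0.25 for the 40 histone genes and 0.01 for all genes. The members that fell were HIST1H1B, HIST1H2BPS2, HIST4H4, HIST1H2AL, HIST1H1E, HIST1H2BJ and HIST2H2BC, and those that rose were HIST1H1C and HIST3H2A. In 11 members the libraries of the groups did not overlap, 9 lower and 2 higher, where 46.8% of all genes tested did not overlap, 22.8% lower and 24% higher. Among the 16 members with a mean of at least 10 CPM, 2 rose and 2 fell, with a median log2 fold change of 0.04. These 16 held 93.1% of the histone counts. Among the 23 tested members under 5 CPM, 5 fell, with a median of -0.53. Where at least 1 CPM in 3 libraries was asked for, the median of the 34 members tested was -0.06. In that fit 5 members were lower (14.7%, where 17.1% of all genes were). Without shCTR 4, 13 of 42 tested members were lower (31.0%, where 22.6% of all genes were) and 2 higher. When shCTR 1 was left out, 3 members were lower (7.14%, against 9.89% of all genes), and when shCTR 2 was, 3 (6.98% against 8.28%). The count was 2 on leaving out shNSD2 1 (4.76% against 9.07%), 5 on leaving out shNSD2 2 (11.9% against 8.89%) and 2 on leaving out shNSD2 3 (4.88% against 7.49%).

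**Figure D1:**
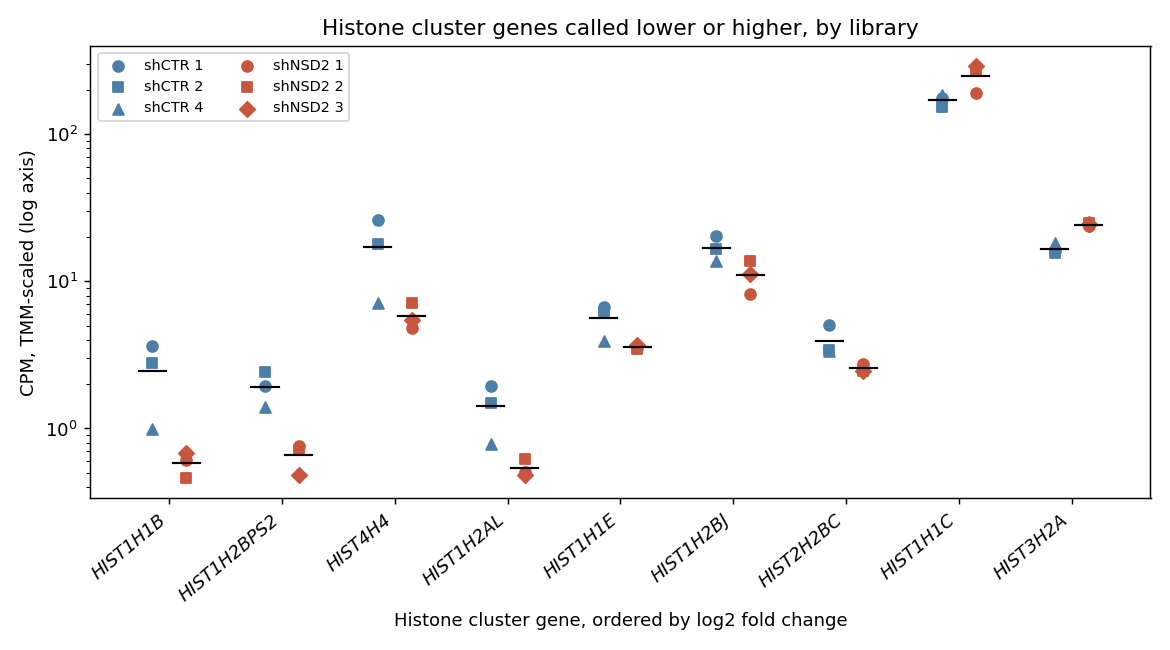
CPM (log axis) of the 9 histone genes called lower or higher, with 1 point per library, blue for shCTR and red for shNSD2, and a bar at each group's mean. For the 7 genes that fell, shCTR 4 (triangle) is the lowest control, and HIST1H1C and HIST3H2A at the right are the genes that rose.

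Linker histones moved in opposite directions. HIST1H1C, the most abundant, stood at 177, 152 and 185 CPM in shCTR 1, 2 and 4 and at 191, 270.04 and 288 CPM in shNSD2 1, 2 and 3. The groups did not overlap, but shNSD2 1 lay just above the highest control. HIST1H1C rose 1.46-fold (log2 fold change 0.54, SE 0.147, edgeR adjusted p = 0.0200), from 171 ± 17.2 to 249.7 ± 51.6 CPM (SD, n = 3 each), a call lost without shCTR 2, shNSD2 2 or shNSD2 3 (adjusted p up to 0.0924). HIST1H1B, another somatic H1 gene, was at 3.62, 2.80 and 0.990 CPM in shCTR and at 0.612, 0.462 and 0.679 CPM in shNSD2. Its knockdown libraries were all below the controls, and shCTR 4 lay 73.8% of the way, on a log2 scale, from the other controls to the knockdown mean. HIST1H1B fell by 2.07 on the log2 scale (SE 0.446, edgeR adjusted p = 0.00788), with 9 to 14 counts in each shNSD2 library, and was called in all 14 alternative fits in which it was tested.

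HIST1H1E, also a somatic H1 gene, was at 6.70, 6.17 and 3.91 CPM in shCTR and at 3.52, 3.49 and 3.69 CPM in shNSD2. The knockdown libraries lay close together and just under shCTR 4. HIST1H1E fell 1.57-fold (log2 fold change -0.65, SE 0.204, edgeR adjusted p = 0.0348), and the call was lost in each fit without a library other than shCTR 4. The pseudogene row HIST1H1PS1 had a log2 fold change of -0.60 and did not pass (adjusted p = 0.117). Of its 50-base stretches 83.2% are shared with AL031777.3, which overlaps it on the other strand, and the strand setting of the counting is not given in the sources used here. Summed over its 7 genes, the H1 family was at 189, 163 and 191 CPM in shCTR and 196, 276 and 293 CPM in shNSD2, a sum carried by HIST1H1C.

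Among H2A genes, HIST3H2A had the smallest adjusted p of the members tested. It stood at 16.1, 15.6 and 18.1 CPM in shCTR and at 23.8, 24.8 and 24.3 CPM in shNSD2. All knockdown libraries were above all controls by more than the spread within either group. HIST3H2A rose 1.46-fold (log2 fold change 0.55, SE 0.0955, edgeR adjusted p = 0.00343) and was called in all 15 alternative fits, with log2 fold changes of 0.36 to 0.62. HIST1H2AL fell from 1.96, 1.49 and 0.782 CPM to 0.510, 0.616 and 0.485 CPM (log2 fold change -1.39, SE 0.364, edgeR adjusted p = 0.0175), with shCTR 4 again nearest to the knockdown libraries. Its call was lost without shCTR 1, shCTR 2, shNSD2 1 or shNSD2 3, and its annotated exon overlaps that of HIST1H2BN on the same strand.

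The abundant HIST1H2AC was at 45.9, 40.4 and 41.7 CPM in shCTR and 36.9, 49.7 and 49.4 CPM in shNSD2, with overlapping groups and a log2 fold change of 0.09 (SE 0.119, edgeR adjusted p = 0.595). HIST1H2AE had the largest positive log2 fold change, 0.78 (SE 0.310), at 0.782 to 1.11 CPM in shCTR and 1.02 to 2.18 CPM in shNSD2, and did not pass (edgeR adjusted p = 0.0785). HIST2H2AC (0.35), HIST1H2AG (-0.20) and HIST1H2AI (-0.35) did not pass either. HIST1H2AI shares 62.3% of its 50-base stretches with HIST1H2AJ, which was too low to test.

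In the H2B family 3 of 16 tested genes fell (18.75%, near the 15.2% of all genes), the pseudogene HIST1H2BPS2 among them. HIST1H2BJ was at 20.4, 16.7 and 13.7 CPM in shCTR and at 8.26, 13.7 and 11.2 CPM in shNSD2. The lowest control, shCTR 4, and the highest knockdown library, shNSD2 2, all but touched. HIST1H2BJ fell 1.53-fold (log2 fold change -0.62, SE 0.187, edgeR adjusted p = 0.0307), and the call was lost without shCTR 1, shCTR 2, shNSD2 1 or shNSD2 3. HIST2H2BC, whose identifier is not in GENCODE 29, was at 5.04, 3.42 and 3.34 CPM in shCTR and at 2.75, 2.46 and 2.47 CPM in shNSD2. HIST2H2BC fell by 0.62 on the log2 scale (SE 0.204, edgeR adjusted p = 0.0423), just under the threshold, and the call was lost in each fit without a library other than shCTR 4.

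The pseudogene HIST1H2BPS2 also fell, from 1.96, 2.41 and 1.41 CPM in shCTR to 0.765, 0.719 and 0.485 CPM in shNSD2. Its groups were well apart, and shCTR 4 lay 39.99% of the way to the knockdown mean, the least among the members that fell. The log2 fold change of HIST1H2BPS2 was -1.55 (SE 0.296, edgeR adjusted p = 0.00485), and it was called in all 15 alternative fits.

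The abundant H2B genes showed no difference that passed the test. HIST2H2BE was at 122, 103 and 104 CPM in shCTR and 94.8, 120.4 and 125 CPM in shNSD2, with overlapping groups and a log2 fold change of 0.05 (SE 0.119, edgeR adjusted p = 0.762). HIST1H2BK was at 82.4, 73.8 and 77.4 CPM in shCTR and 60.1, 87.5 and 91.9 CPM in shNSD2 (log2 fold change 0.04, SE 0.141, edgeR adjusted p = 0.861). In both genes shNSD2 1 was the lowest library and shNSD2 3 the highest. HIST1H2BD (0.09), HIST3H2BB (0.09), HIST1H2BC (0.01), HIST1H2BE (-0.04) and HIST1H2BN (-0.07) also had log2 fold changes near 0. HIST2H2BF was at 19.95, 16.8 and 9.23 CPM in shCTR and 9.18, 10.8 and 10.6 CPM in shNSD2, so that shCTR 4 lay among the knockdown libraries. Its log2 fold change was -0.59 (edgeR adjusted p = 0.0698), and -0.85 with adjusted p = 3.35e-05 without shCTR 4. Over its alternatives the adjusted p ran from that value to 0.237, and DESeq2 called it (adjusted p = 0.0310). The other tested H2B rows, HIST2H2BD (-0.53), HIST1H2BO (-0.59), HIST1H2BF (-0.43), HIST1H2BG (-0.35) and HIST1H2BL (0.29), did not pass. Without shCTR 4, edgeR called HIST1H2BF (-0.61, adjusted p = 0.0126) and HIST2H2BD (-0.62, adjusted p = 0.0363) lower.

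No H3 gene passed the main test: edgeR called 0 of 6, and so did DESeq2 and limma-voom. In the main fit 1 had an unadjusted edgeR p under 0.05. That gene was HIST2H3D, at 2.79, 1.59 and 0.938 CPM in shCTR and 0.867, 1.08 and 0.970 CPM in shNSD2 (log2 fold change -0.87, edgeR adjusted p = 0.0928). Its level in shCTR 4 was within the knockdown range. HIST2H3D shares 80.4% of its 50-base stretches with other genes, 57.7% with HIST2H3DP1, so its value may not be its own. Without shCTR 4, edgeR called HIST2H3D (-1.16, adjusted p = 0.00415) and HIST1H3A (-1.17, adjusted p = 0.0277) lower. With all 6 libraries, edgeR called HIST2H3D lower after the correction for GC content and length (adjusted p = 0.0327). A fit with a replicate block, also on all libraries, called HIST2H3D and HIST1H3A lower. HIST1H3A (-0.93), HIST1H3J (-0.67) and HIST1H3B (-0.54) also had negative log2 fold changes, at under 1.5 CPM in every library. The more abundant HIST1H3H was at 27.4, 26.7 and 28.9 CPM in shCTR and 26.7, 33.4 and 35.6 CPM in shNSD2 (log2 fold change 0.21, SE 0.113, edgeR adjusted p = 0.184), and HIST1H3E at 22.1, 19.5 and 16.4 CPM in shCTR and 19.99, 20.6 and 21.8 CPM in shNSD2 (0.10, adjusted p = 0.513).

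In the H4 family, whose coding genes encode the same protein, mostly from different nucleotide sequences, HIST4H4 fell. It lies alone on chromosome 12 and stood at 25.96, 17.8 and 7.14 CPM in shCTR 1, 2 and 4 and at 4.84, 7.09 and 5.48 CPM in shNSD2 1, 2 and 3. The groups were separated only by the small gap between shCTR 4 and shNSD2 2, and shCTR 4 lay 83.9% of the way to the knockdown mean. HIST4H4 fell 2.93-fold (log2 fold change -1.55, SE 0.367, edgeR adjusted p = 0.0118), from 17.0 ± 9.44 to 5.80 ± 1.16 CPM (SD, n = 3). Without shCTR 4 its log2 fold change was -1.92 with an edgeR adjusted p of 4.49e-07, and the call was lost without shNSD2 1 or shNSD2 3 (adjusted p up to 0.0521). HIST1H4H was at 47.3, 40.1 and 32.3 CPM in shCTR and 24.1, 35.4 and 33.4 CPM in shNSD2 (log2 fold change -0.37, SE 0.161, edgeR adjusted p = 0.105), a difference that passed without shCTR 4 (adjusted p = 0.00439). HIST1H4I was at 29.6, 26.2 and 31.4 CPM in shCTR and 27.2, 33.1 and 35.5 CPM in shNSD2 (0.14, adjusted p = 0.391). The rarer HIST2H4A (-0.31), HIST1H4E (-0.01), HIST1H4C (0.16) and the pseudogene HIST1H4PS1 (0.09) did not pass.

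**Figure D2:**
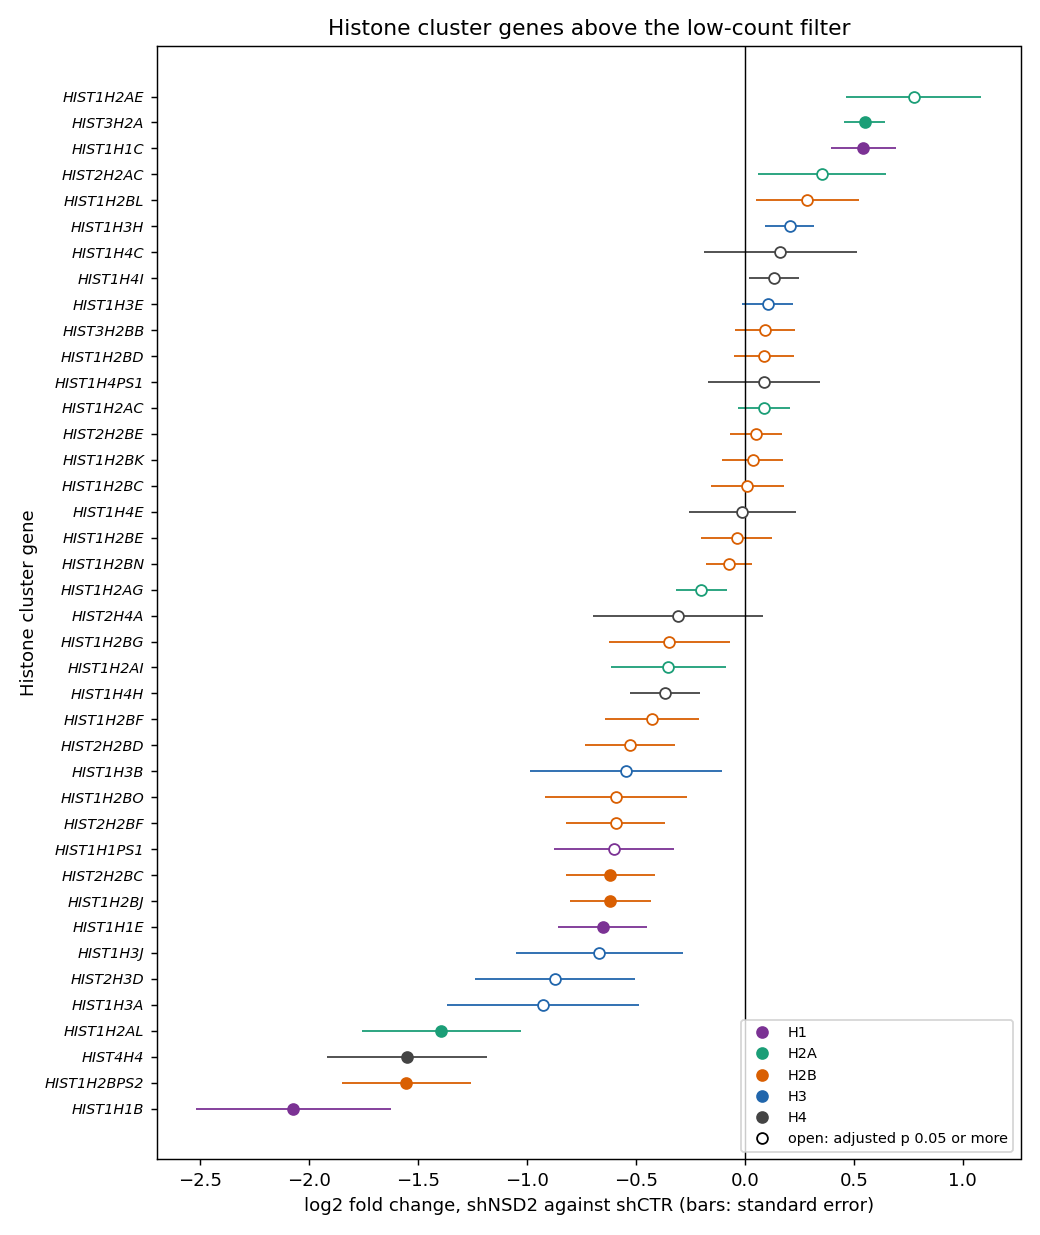
Log2 fold change with its standard error for the 40 histone genes above the low-count filter, ordered by value and coloured by family, with filled points for an adjusted p under 0.05. The values run from -2.07 for HIST1H1B to 0.78 for HIST1H2AE, with 24 below 0 and 16 above.

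Summed by family, H4 was at 112, 91.2 and 76.8 CPM in shCTR and 62.5, 83.2 and 83.6 CPM in shNSD2, with shCTR 4 inside the knockdown range. The sums of H2A (82.6 to 90.4 CPM in shCTR, 80.9 to 102 in shNSD2), H2B (272 to 332 and 237 to 311) and H3 (48.0 to 55.6 and 48.5 to 60.9) overlapped between the groups. Only in the H1 sum were all 3 knockdown libraries above all controls. These sums pool genes that moved in different directions and are given without a test. A split of reads between rows of the same family would leave them unchanged. Reads dropped for fitting several places, or assigned to a gene outside the family, would be missing from them.

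**Figure D3:**
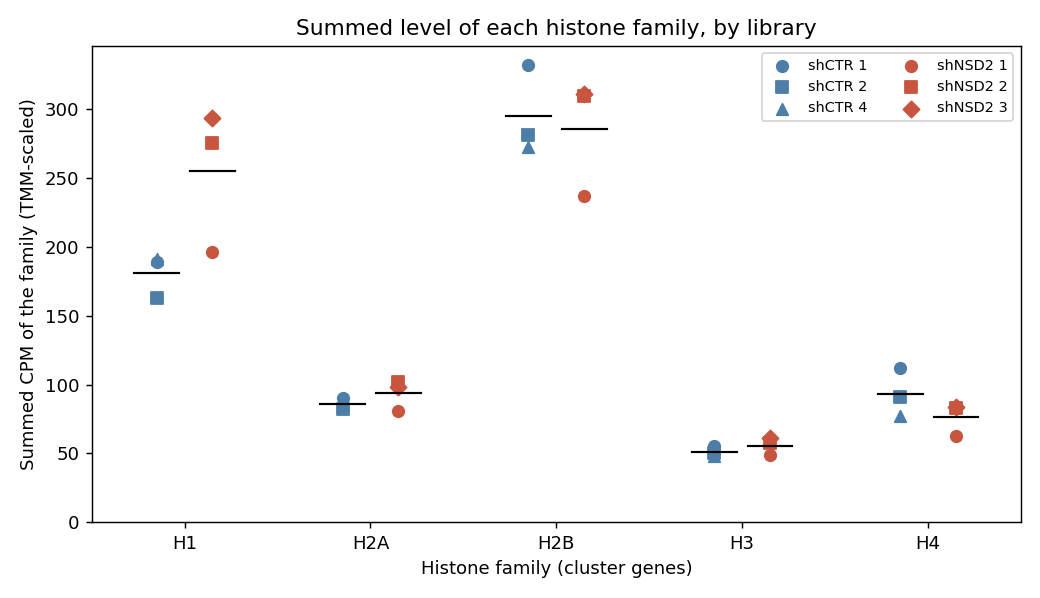
Summed CPM of each histone family in each library, blue for shCTR and red for shNSD2, with bars at the group means and the axis from 0. H1 is higher in the knockdown libraries (196 to 293 against 163 to 191 CPM), and the other families overlap between the groups.

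Similar copies limit some of these rows. A gene's annotated transcripts were cut into all stretches of 50 bases, and the share that also occurs in a transcript of another gene, on either strand, was counted. That share was over 50% for 14 of the 64 annotated members, 6 of them tested, and under 1% for 18 of the 39 tested and annotated members. HIST2H4A shares 97.5% of its stretches with HIST2H4B, HIST1H4K 100% with HIST1H4J, and HIST2H2AA3 100% with HIST2H2AA4. Among the members that were called, HIST1H1B, HIST1H1C, HIST1H1E and HIST1H2BPS2 share none, and HIST4H4 (0.19%), HIST3H2A (0.59%), HIST1H2AL (4.07%) and HIST1H2BJ (4.65%) share little. HIST2H2BC, also called, could not be searched by its identifier, and HIST2H2BD shares 70.95% of its stretches with a gene of that name, which it overlaps on the other strand. HIST1H2BK shares 74.1%, most of it with H2BFS. How the counting treated reads that fit several places is not given in the sources used here, so a low count of a copied gene may be a count of its few unique stretches.

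Neighbours on chromosome 6 did not all move alike. Of the 65 genes 48 lie there, in the HIST1 cluster, and 30 HIST1 genes were tested. Of the 4 lowest log2 fold changes, 3 belonged to HIST1H2BPS2, HIST1H2AL and HIST1H1B, which follow each other within 3468 bases of GRCh38 (chr6:27864062-27867529), of which the first 2 lie within the long gene model of HIST1H2BN, whose log2 fold change was -0.07. The next tested members on the far side, HIST1H3J (-0.67) and HIST1H2BO (-0.59), did not pass. The stretch was noticed after the values were seen and carries no test of its own. HIST1H1C (chr6:26055787-26056428) and HIST1H1E (chr6:26156354-26157107), which moved in opposite directions, have 3 tested members between them, HIST1H4C, HIST1H2BC and HIST1H2AC, with log2 fold changes of 0.16, 0.01 and 0.09.

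**Figure D4:**
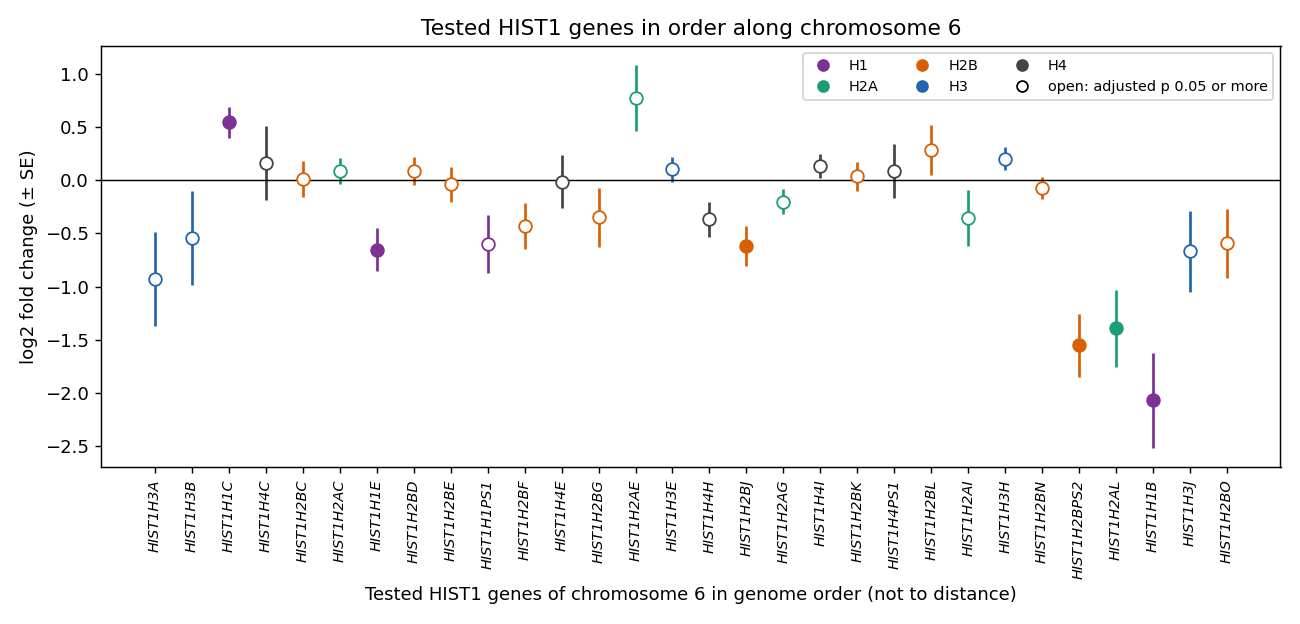
Log2 fold change with its standard error for the tested HIST1 genes in their order along chromosome 6, evenly spaced, coloured by family and filled where the adjusted p is under 0.05. Near the right end HIST1H2BPS2 (-1.55), HIST1H2AL (-1.39) and HIST1H1B (-2.07) stand next to each other, while HIST1H2BN to their left is near 0 (-0.07).

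Many H2A and H2B genes stand head to head and share the DNA between their start sites, so that their levels can be compared within a library. Among the members 13 head-to-head pairs had starts within 1000 bases, 138 to 953 bases apart, and in 8 pairs both genes were tested. The 13 pairs include the H3 gene HIST1H3J with HIST1H2BO. They also include pairs with the pseudogenes HIST2H2BD (138 bases), HIST1H2APS5 and HIST1H2BPS2 (953 bases). The log2 ratio of HIST3H2A to HIST3H2BB was 1.69, 1.69 and 1.799 in shCTR and 2.24, 2.23 and 2.10 in shNSD2, a difference of 0.46 with groups that did not overlap. The ratio of HIST1H2BJ to HIST1H2AG was 0.02, -0.14 and -0.40 in shCTR and -0.77, -0.46 and -0.54 in shNSD2, a difference of -0.42, again without overlap. Each gave an exact two-sided permutation p = 0.1, the smallest possible with 3 against 3 libraries, and p = 0.4 adjusted over the 8 pairs, so that this design could not call them. The ratio of HIST1H2BC to HIST1H2AC differed by -0.08 (exact p = 0.4), and the other 5 pairs overlapped between the groups as well.

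The promoters of HIST3H2A and HIST1H2BJ, from the pairs just named, and of HIST4H4 and HIST1H1B are shown because these genes were called and the DNA of the former lies between paired genes. RefSeq holds a promoter, from 250 bases before to 50 after the start, for 50 of the members. On either strand CCAAT was in 41 of the 50 (82.0%), against 35.7% of all 27305 promoters in that table, TATAAA in 72.0% against 11.95%, and the octamer ATTTGCAT, a site known for POU2F1, in 20 of the 50 against 1.8%. By family, CCAAT was in every H1, H2A, H2B and H3 promoter held and in 1 of 10 of H4, and the octamer was in 9 of 13 H2A and 11 of 15 H2B promoters and in none of H1, H3 or H4. Capitals mark matches of these 3 motifs on either strand, and overlapping matches run together. The sequences are from GRCh38.p14, all on the minus strand, and read 5′ to 3′ for HIST3H2A (chr1:228457824-228458123), HIST1H2BJ (chr6:27132746-27133045), HIST4H4 (chr12:14771082-14771381) and HIST1H1B (chr6:27867539-27867838).
HIST3H2A: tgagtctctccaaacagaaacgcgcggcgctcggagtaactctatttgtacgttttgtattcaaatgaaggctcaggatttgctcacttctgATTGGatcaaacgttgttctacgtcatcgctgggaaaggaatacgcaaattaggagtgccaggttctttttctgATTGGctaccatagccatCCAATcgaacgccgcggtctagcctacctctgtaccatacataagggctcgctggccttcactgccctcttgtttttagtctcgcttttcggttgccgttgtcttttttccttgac
HIST1H2BJ: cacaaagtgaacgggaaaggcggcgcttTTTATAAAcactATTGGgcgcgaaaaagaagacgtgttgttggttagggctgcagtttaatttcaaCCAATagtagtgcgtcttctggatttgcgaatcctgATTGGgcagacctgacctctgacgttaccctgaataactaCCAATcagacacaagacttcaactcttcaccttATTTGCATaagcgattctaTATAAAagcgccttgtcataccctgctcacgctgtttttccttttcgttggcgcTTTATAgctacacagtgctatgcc
HIST4H4: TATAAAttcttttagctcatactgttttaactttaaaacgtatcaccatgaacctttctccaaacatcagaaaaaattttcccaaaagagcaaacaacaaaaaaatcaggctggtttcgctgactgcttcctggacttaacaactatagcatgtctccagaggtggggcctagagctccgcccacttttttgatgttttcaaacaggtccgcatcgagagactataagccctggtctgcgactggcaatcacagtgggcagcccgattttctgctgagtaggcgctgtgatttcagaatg
HIST1H1B: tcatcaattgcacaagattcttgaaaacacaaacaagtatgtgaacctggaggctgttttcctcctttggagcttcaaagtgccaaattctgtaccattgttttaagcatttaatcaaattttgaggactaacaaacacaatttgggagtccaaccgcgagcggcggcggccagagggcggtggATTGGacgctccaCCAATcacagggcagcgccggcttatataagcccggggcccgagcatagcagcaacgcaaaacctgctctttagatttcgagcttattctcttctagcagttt

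Both windows of the paired genes reach the RefSeq start of the partner, HIST3H2BB or HIST1H2AG. HIST1H2BJ held all 3 motifs, HIST3H2A and HIST1H1B only CCAAT, and HIST4H4 only TATAAA, at the far end of its window. A match or its absence describes letters in these windows and nothing about binding.

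Genes outside the clusters that also encode histones are polyadenylated and made throughout the cell cycle in the main. Of 12 tested variant histone genes (20 listed, 13 with a row), 3 rose at an adjusted p under 0.05, where 15.5% of all genes did, and 9 did not pass, with a median log2 fold change of 0.15. H2AFY2, a macroH2A gene, rose from 8.85, 10.8 and 13.1 CPM to 19.99, 17.7 and 18.4 CPM (log2 fold change 0.78, edgeR adjusted p = 0.00380). H2AFJ, a replacement H2A gene, rose from 191, 191 and 258 CPM to 265, 309 and 336 CPM (0.51, adjusted p = 0.0202). H1F0, a linker histone gene of slowly dividing and differentiated cells, rose from 195, 216 and 181 CPM to 293, 232 and 234 CPM (0.36, adjusted p = 0.0405). All 3 were higher in every knockdown library than in every control. H2AFZ, an exchange variant of H2A, H2AFY and H3F3B, which encodes the replacement histone H3.3, were the most abundant by CPM and did not pass (-0.04, 0.10 and 0.21). Per kilobase of annotated exon, H2AFX and H2AFZ averaged 177 CPM and H1FX 109, compared with 328 for HIST1H1C. The model of HIST1H1C holds little beyond the coding sequence and is shorter than theirs, so these values are not on the same footing.

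The machinery that makes and processes histone mRNA held 2 higher and 6 lower members of 26 tested, where 15.5% of all genes were called higher and 15.2% lower, with a median log2 fold change of -0.10. CCNE2, a cyclin partner of CDK2 at the start of S phase, fell from 27.8, 23.5 and 19.7 CPM to 8.16, 11.6 and 12.4 CPM (log2 fold change -1.14, edgeR adjusted p = 0.00181). ZCCHC6, a uridylyltransferase that tags histone mRNA for decay, fell from 96.2, 83.9 and 66.9 CPM to 47.0, 54.0 and 51.3 CPM (-0.70, adjusted p = 0.00395), and NCBP1, the large subunit of the cap-binding complex, from 95.3, 96.6 and 93.5 CPM to 74.9, 74.3 and 71.2 CPM (-0.37, adjusted p = 0.00684). NPAT, the coactivator of histone gene transcription, fell by 0.42 on the log2 scale (adjusted p = 0.0180), from 30.3, 26.7 and 23.4 CPM to 19.02, 20.03 and 21.2 CPM. SLBP, the stem-loop-binding protein, was at 78.4, 85.6 and 91.1 CPM in shCTR and 73.8, 80.4 and 76.8 CPM in shNSD2, and did not pass (-0.14, adjusted p = 0.230). The 2 that rose were LSM10 (0.45, edgeR adjusted p = 0.0159) and NELFE (0.45, edgeR adjusted p = 0.0162). NPAT, SLBP, LSM10 and NELFE were chosen after their values were seen.

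Of 22 tested histone chaperone genes 9 fell, where 15.2% of all genes did, and 13 did not pass, with a median log2 fold change of -0.02. HJURP, which deposits the centromeric H3 variant CENPA, fell from 109.9, 99.7 and 101 CPM to 66.1, 71.2 and 71.0 CPM (log2 fold change -0.58, edgeR adjusted p = 0.00175). CHAF1A, the large subunit of the chromatin assembly factor that places H3 and H4 behind the replication fork, fell from 96.3, 96.3 and 82.7 CPM to 54.7, 63.4 and 60.6 CPM (-0.62, adjusted p = 0.00208). MCM2, a replicative helicase subunit that also binds histones, fell from 235, 245 and 241 CPM to 137, 169 and 153 CPM (-0.65, adjusted p = 0.00193). Among 18 tested S-phase genes, a list that shares MCM2, 17 fell, where 15.2% of all genes did, with a median log2 fold change of -0.60. The smallest p-values were those of POLA1 (-0.67), GINS1 (-0.62) and UHRF1 (-0.81), with adjusted p = 6.62e-04, 9.08e-04 and 0.00116. For these 3 genes shCTR 4 lay 3.96% to 6.57% of the way from the other controls to the knockdown mean, where it lay 83.9% of the way for HIST4H4. POLA1 was at 51.8 CPM in shCTR 4 and 53.1 and 53.5 CPM in the other controls.

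**Figure D5:**
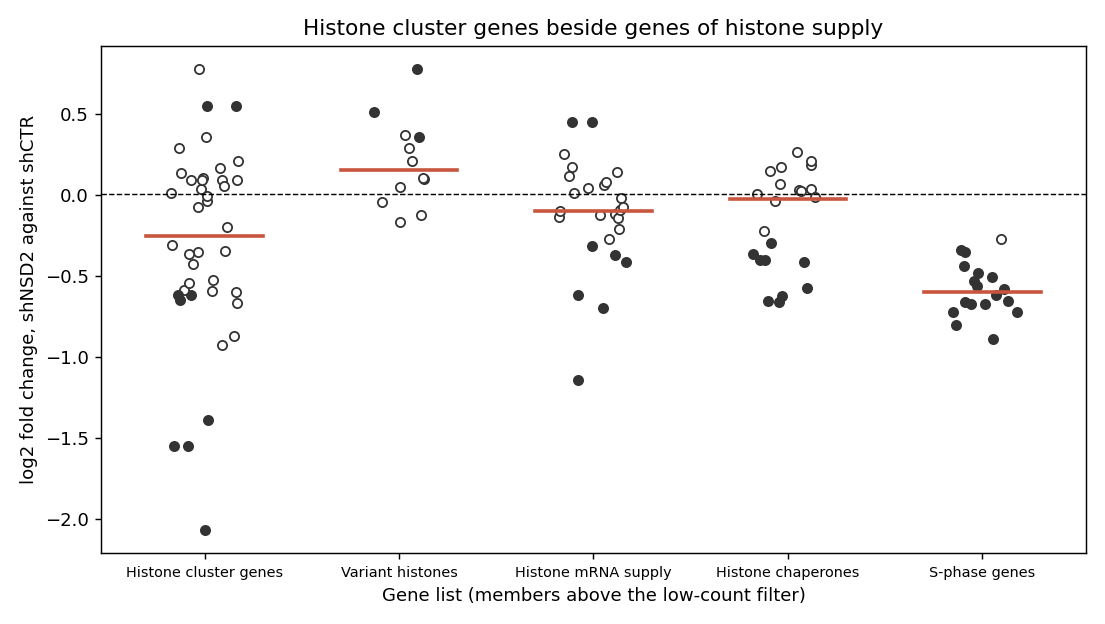
Log2 fold change of each tested gene in the histone clusters and in 4 related lists, with filled points for an adjusted p under 0.05, a red bar at each list's median and a dashed line at the median of all genes (0.01). The medians are -0.25 for the cluster genes, 0.15 for variant histones, -0.10 for histone mRNA supply, -0.02 for chaperones and -0.60 for S-phase genes.

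Carry-over of RNA without a poly(A) tail bears on genes whose mRNA mostly lacks one, so the 20 other non-polyadenylated RNAs with a row were measured beside them. Their counts summed to 15.7, 19.5 and 34.2 CPM in shCTR 1, 2 and 4 and to 22.4, 33.7 and 34.8 CPM in shNSD2 1, 2 and 3, of which RN7SL2, the RNA of the signal recognition particle, made up 4.35, 8.15 and 26.01 CPM and 16.01, 25.8 and 27.1 CPM. shCTR 4 thus stood with shNSD2 2 and 3 here, and shNSD2 1 between them and the other controls. The small nucleolar RNA SNORD17 fell, from 4.06, 2.75 and 2.14 CPM to 1.73, 1.95 and 1.503 CPM (log2 fold change -0.79, edgeR adjusted p = 0.0404). It was the member called among 5 tested, where 15.2% of all genes were called lower. RN7SL2 did not pass (0.85, adjusted p = 0.192). The part of such carry-over in the histone values was not tested, and it and a change in polyadenylated histone transcripts cannot be told apart from these counts. In bulk samples, fewer cells in S phase and less histone RNA per cell cannot be told apart either.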

How the data were processed

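RNA-seq counts of 6 C42 libraries were used, 3 per group, with groups taken from the sample titles. The authors deposited raw read counts per gene (whole numbers, with totals that differ between libraries). Per the submitters' processing notes they used CASAVA 1.8.2, STAR 2.6.0a and GRCh38; the program that counted reads, its annotation, its use of strand and any filter on rows were not given in the sources used here. Of 90 genes with such a name in GENCODE 29, 26 are not analysed here under the identifier given there. A gene named HIST2H2BC is among them, and the row of that name analysed here has another identifier.

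The test was that of edgeR 4.0.16, under R 4.3.3 (filterByExpr by group, TMM, glmQLFit and glmQLFTest, Benjamini-Hochberg over the 17160 genes left, no covariate). The common biological coefficient of variation was 0.106. Pairs of libraries of a group differed 3.69 to 37.2 times more than sampling noise (chi-square per degree of freedom), so none was a repeat reading of the same library. This measure does not tell whether the libraries came from independent cultures. Calls need an adjusted p under 0.05. The position of shCTR 4 was taken on log2(CPM + 0.5). Sequences came from GENCODE 29 transcripts, of the build the notes name, and from RefSeq promoters (GRCh38.p14); 64 of 65 members were found in GENCODE 29 by identifier, and promoters of 50 were matched by symbol and by overlap with the gene.

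The members and the lists (variant histones, histone mRNA supply, chaperones, S phase, non-polyadenylated RNA, cell type markers) were chosen with earlier results of these data known. Some cell type markers are not reported here. The genes named were set by rule: every member above the filter, those called and the 6 most abundant by library, the 5 members of highest count below it, and the 3 called genes of smallest p of each list. In simulated data of 16851 genes with the real means, the fit recovered 42% of 100 genes changed 1.5-fold and 83% of 100 changed 2-fold, with 10 false calls of 135. Far fewer genes were changed there than the 30.7% of genes called in the real data. These rates therefore need not hold for the real data. Alternatives were other scalings, DESeq2 1.42.0, limma-voom (limma 3.58.1), other filters, a replicate block, a correction for GC content and length with mgcv, and each library left out.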

Additional observations from a re-analysis of the deposited data

How the results depend on the processing

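The sign of NSD2 and of each of the 9 called histone genes was the same in every alternative fit that tested it. HIST1H1B and HIST1H2AL were not tested where at least 1 CPM in 3 libraries was asked for, nor HIST2H2BC in the GC and length fit. HIST1H1B, HIST1H2BPS2 and HIST3H2A were called throughout, while HIST1H1C, HIST1H1E, HIST1H2AL, HIST1H2BJ, HIST2H2BC and HIST4H4 lost the call in 2 to 5 of the fits without a library and in none of the others that tested them. Leaving out a library lowers the power, so a lost call need not mark that library. The cause was not tested in any case below. With upper-quartile factors, 5 variant histone genes and 1 chaperone gene were higher, where 3008 of all 17160 genes were. With the replicate block, 11 of 40 tested histone cluster genes were lower (27.5%, where 17.5% of all genes were). HIST1H3A, HIST1H4H, HIST2H2BF and HIST2H3D were among these and not among the main calls. In that fit 5 variant histone, 4 histone mRNA supply and 1 chaperone gene were higher, where 3242 of all 17160 genes were. The shared numbers 1 and 2 do not pair the libraries (correlation of deviations -0.03 and -0.09), and only 2 numbers are shared. With the correction for GC content and length, 1 variant histone gene was lower and 3 chaperone genes higher. In that fit 2429 of all 17111 genes were lower and 2895 higher. Without a library, histone cluster genes numbered 2 to 13 lower and 1 to 3 higher, variant histone genes 1 to 6 higher, histone mRNA supply genes 0 to 4 higher and 3 to 8 lower, and chaperone genes 0 to 3 higher. Over all genes, 7.49% to 22.6% were lower in those fits, and 1116 to 4251 genes were higher. All other list counts, those of the S-phase genes included, stayed within 1.5 times their main value. The 25 untested members were too low to judge at this depth, and why they were low was not tested.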
